A study of Heliconius erato cyrbia and Heliconius erato demophoon with 32 samples.

Results

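In pupal wings of the butterfly Heliconius erato, 61 annotated loci of 13055 had far higher read counts at 50% of pupal development than at 70%, in both subspecies and both wing regions. These loci were selected on their levels. Each had a mean of at least 20 CPM (the count divided by the library's total count, times 1000000) in each of the 4 groups at 50%, and in each subspecies and region a mean at 50% at least 16 times the mean at 70%. The fall between stages is therefore how the loci were chosen, and it is given as a description without a test. Of the 2817 annotated loci that passed the level threshold, 61 (2.17%) also passed the fold threshold in all 4 combinations of subspecies and region. Most of the rest passed it nowhere, with 2704 loci at 0 of 4 combinations, 14 at 1, 25 at 2 and 13 at 3.

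The libraries came from 16 captive-bred animals fed on Passiflora biflora, 8 of H. e. cyrbia, which is iridescent blue, and 8 of H. e. demophoon, which is not. In each subspecies 4 animals were taken at 50% development and 4 others at 70%. Each animal gave 2 libraries, 1 of the anterior hindwing, which bears the androconial scale type, and 1 of all other forewing and hindwing tissue (main wing). Animals 1 to 4 were cyrbia and animals 5 to 8 demophoon at 50%, with 2 males and 2 females in cyrbia (males 1 and 4) and 1 male and 3 females in demophoon (male 8). At 70%, animals 9 to 12 were cyrbia, all 4 male, and animals 13 to 16 were demophoon, 1 male (animal 15) and 3 females. The sex balance of cyrbia thus changed with the stage. Library totals ran from 9330883 to 68986011 counts, so that 1 count was worth 0.0145 to 0.107 CPM.

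A butterfly wing scale is the flattened outgrowth of a single epithelial cell. During pupal life this cell extends over a scaffold of actin bundles, secretes a chitinous cuticle folded into longitudinal ridges, and later receives pigment while the cuticle hardens. The spacing and layering of the ridges sets structural colour such as the blue of cyrbia. The files give the loci only assembly numbers (MSTRG) and gene model numbers, with no gene name or function, and 0 of these IDs matched the 14137 genes of the reference table for another assembly. No member can therefore be given a role in this process, and the labelled tissue could not be checked against marker genes.

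The members took a large part of the library counts at 50% and a very small part at 70%. At 50% their summed share of a library's counts was 17.6% ± 1.33 (SD, n = 4) in cyrbia main wing, 17.4% ± 0.944 in cyrbia anterior hindwing, 16.8% ± 1.92 in demophoon main wing and 19.6% ± 1.69 in demophoon anterior hindwing. At 70% the shares, in the same order, were 0.143% ± 0.0402, 0.143% ± 0.0654, 0.15% ± 0.0323 and 0.146% ± 0.0302. Within cyrbia males the shares were 16.3% to 18.6% at 50% (animals 1 and 4, 4 libraries) and 0.0879% to 0.236% at 70% (4 animals, 8 libraries). The lowest library at 50% (14.8%) and the highest at 70% (0.236%, Wilson 95% interval 0.234% to 0.237%, which covers counting error only) lay far apart. The 10 members with the most counts held most of the share at 50%, 13.1% to 15.8% of the library as group means. The libraries are of bulk tissue, so that fewer cells of a type and less RNA per cell cannot be told apart.

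**Figure D1:**
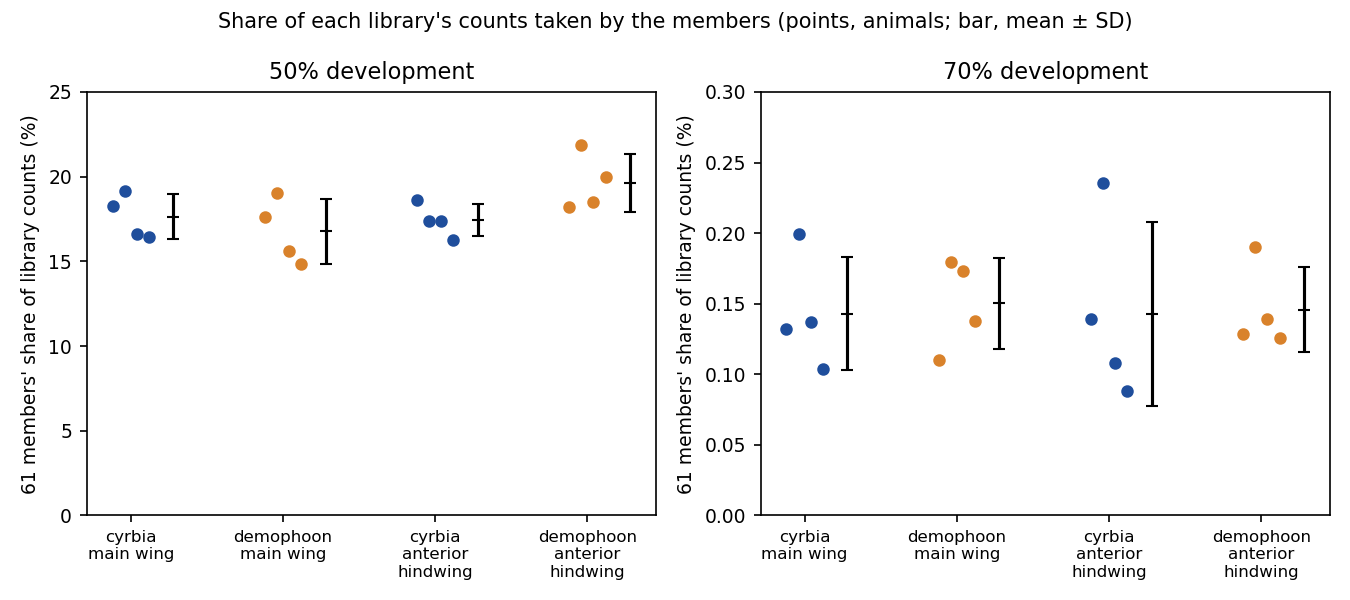
The vertical axes give the percentage of each library's counts that fell in the 61 members, with 1 point per animal and the mean ± SD beside each group, at 50% (left) and 70% development (right, on a scale from 0 to 0.3%). The 16 libraries at 50% lie between 14.8% and 21.9%, and the 16 at 70% between 0.0879% and 0.236%.

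The median member level in a library was 363 to 603 CPM at 50% and 3.22 to 6.87 CPM at 70%. By mean over the 16 libraries at 50%, 5 members were at 10000 CPM or more, 20 between 1000 and 10000, 28 between 100 and 1000, and 8 under 100. At 70%, 11 members had a mean under 1 CPM, 26 between 1 and 10, and 24 at 10 or more. CPM is not divided by locus length, which the files do not give, so that these classes describe shares of reads and not RNA molecules per locus. The fall was complete in no member, in that each had a count in at least 1 library at 70%, although 13 members were at 0 in some of them. In 60 of 61 members the lowest library at 50% was still above the highest at 70%. The exception was MSTRG.1137, at 10.1 CPM in its lowest library at 50% and 43.1 CPM in its highest at 70%.

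**Figure D2:**
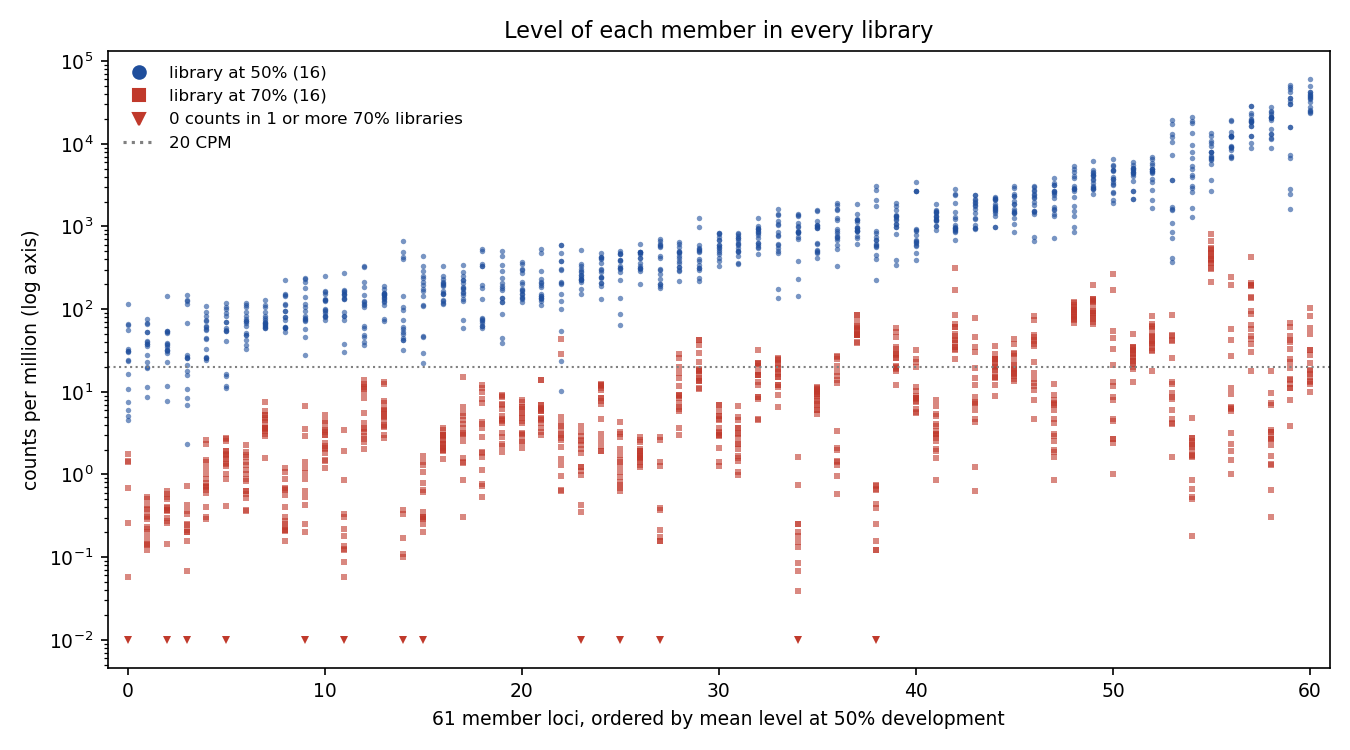
Each column is a member, ordered by its mean at 50%, and each symbol a library, with CPM on a log axis. Circles (50%) and squares (70%) form bands that are apart in 60 of 61 columns, and triangles at the foot mark the 13 members with a count of 0 in some library at 70%.

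The 6 members with the most counts at 50% were MSTRG.16637, MSTRG.14621, MSTRG.16634, MSTRG.1901, MSTRG.17554 and MSTRG.16944. MSTRG.16637 (gene model evm.TU.Herato1605.148, chromosome 16) was at 25473, 24243, 49985 and 40085 CPM in the main wing of animals 1 to 4 and at 35501, 41924, 36464 and 27557 CPM in that of animals 5 to 8. In the main wing at 70% it was at 16.3, 82.8, 31.9 and 18.3 CPM in cyrbia (animals 9 to 12) and at 13.6, 49.7, 102 and 31.8 CPM in demophoon (animals 13 to 16). The locus thus took at least 23532 CPM in every library at 50%, and the subspecies overlapped at both stages. Its neighbour MSTRG.16634 (evm.TU.Herato1605.147) was at 8785 to 27970 CPM over the 16 libraries at 50% and at 0.309 to 17.7 CPM at 70%. MSTRG.1901 (evm.TU.Herato0215.2, chromosome 2) went from 8901 to 28361 CPM at 50% to 17.7 to 430 CPM at 70%. MSTRG.17554 (evm.TU.Herato1705.66, chromosome 17) was at 6721 to 19374 CPM at 50% and at 1.02 to 246 CPM at 70%, with the highest late value in animal 10.

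The size of the fall differed widely among the members. The smallest of a member's 4 ratios of group means ran from 16.1 to 2760, with a median of 60.2, and was 100 or more in 23 members and 1000 or more in 5. The largest were those of MSTRG.16634 (2760), MSTRG.13048 (2490) and MSTRG.14287 (1564). MSTRG.14287 (evm.TU.Herato1408.159, chromosome 14) was at 143 to 1414 CPM at 50%, and at 70% at 0 to 1.64 CPM. In MSTRG.14594, chosen after its values were seen, all 4 demophoon main wing libraries at 70% had 0 counts, and against a floor of 3 counts per library its mean of 27.2 CPM at 50% was at least 290-fold higher.

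Close to the threshold the members were continuous with loci that were not chosen. Just inside lay MSTRG.16944 (smallest ratio 16.1), MSTRG.6671 (16.1) and MSTRG.20389 (16.5), and just outside lay MSTRG.17553 (15.8), MSTRG.2185 (15.3) and MSTRG.13879 (14.9). MSTRG.16944 (evm.TU.Herato1701.151, chromosome 17) kept the highest late level of all members, with a mean of 451 CPM at 70% after 7906 CPM at 50%. It was among 18 members whose mean at 70% was still 20 CPM or more. The thresholds were applied to counts scaled by library total. On this scale the median of the other 2756 annotated loci above the level threshold moved by -0.32 (log2) from 50% to 70%.

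What remained at 70% came unevenly from the animals. In the anterior hindwing of cyrbia, animal 10 held the highest of the 4 levels in 31 of 61 members, and in 14 of them it was at least 2-fold above the next animal. In its main wing it was highest in 21 members, as was animal 11. MSTRG.17554 was at 246 CPM in the anterior hindwing of animal 10 and at 5.85 to 6.49 CPM in the other 3 animals, and in the main wing at 195 CPM against 3.21 to 9.49 CPM. In demophoon anterior hindwing animal 14 was highest in 27 members, and in the main wing animals 15, 16, 14 and 13 were highest in 22, 20, 15 and 4. Without animal 10 the thresholds gave 62 members, 59 of them among the 61, so that this animal does not set the membership.

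Among the 8 animals at 50% the members varied more than other loci of at least 20 CPM. The highest library was 4.53 times the lowest in the median member and 2.3 times in the median of the other 2756 loci. In 13 members (21.3%) the ratio reached 10 or more, against 5.33% of the other loci. The spread was between animals more than between wing regions. The SD among animals of a subspecies, on the log2(CPM + 0.5) scale and averaged over an animal's regions, was 0.57 in the median member, and the difference between the regions of an animal was 0.27. The other loci had 0.30 and 0.17. Of the members, 48 had a larger SD in cyrbia than in demophoon (78.7%), as had 74.5% of the other loci. After group means were removed, the main wing and anterior hindwing of an animal correlated across the 61 members with r of 0.79 to 0.95, and across the other loci with r of 0.61 to 0.88. These are correlations across loci that share libraries, and loci are not independent replicates.

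The animals did not simply differ in a common level, since some members were high where others were low. In a singular value decomposition of the members' levels, centred per member, the first axis held 62.7% of the sum of squares. Its weights were 0.67 in animal 3, 0.44 in animal 4, -0.41 in animal 1, -0.37 in animal 8 and -0.24 in animal 2, and between -0.04 and -0.01 in animals 5, 6 and 7. Of the members, 42 had a negative score and 19 a positive one. Animals 3 and 4 are a female and a male, and so are animals 2 and 1. Animal 3 was the lowest of 8 animals in 27 members and the highest in 9.

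**Figure D3:**
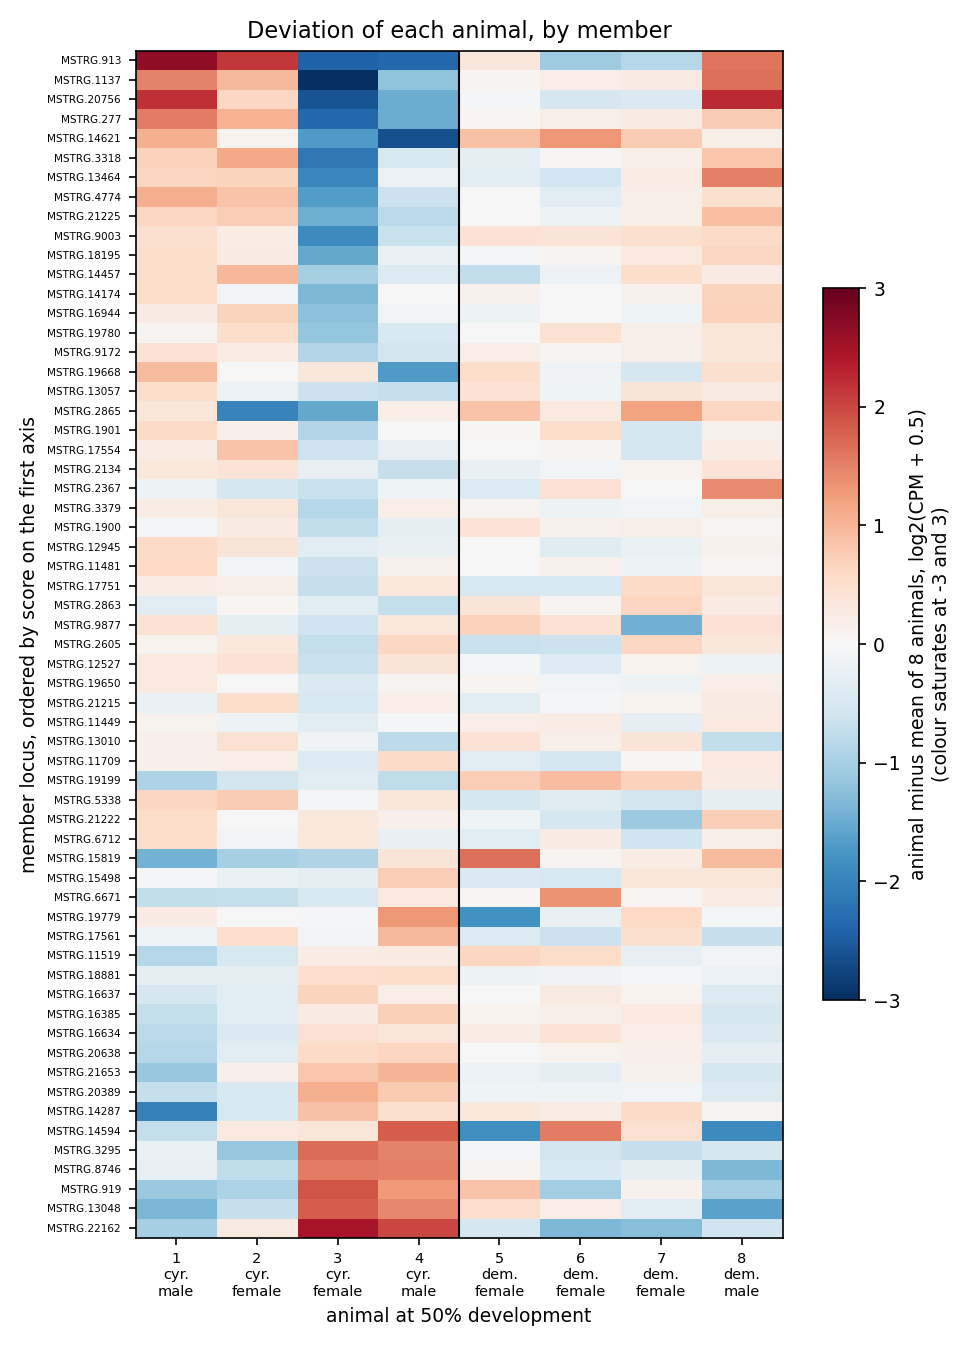
Rows are the 61 members in order of their score on the first axis, columns the 8 animals at 50%, and colour the animal's level minus the mean of the 8, in log2(CPM + 0.5) averaged over both regions. The top rows are red in animals 1, 2 and 8 and blue in animals 3 and 4, and most of the bottom rows show the reverse.

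The member with the most negative score, MSTRG.913 (evm.TU.Herato0101.707, chromosome 1), chosen after its values were seen like the others in this paragraph, was at 17307, 13153, 719 and 864 CPM in the main wing of animals 1 to 4. Their anterior hindwings had 19436, 12195, 411 and 369 CPM. In demophoon it was at 3681, 1114, 1633 and 7313 CPM in the main wing of animals 5 to 8. Animals 3 and 4 thus lay over 10-fold below animals 1 and 2 of the same subspecies in both regions, and animal 8 was the highest of demophoon. MSTRG.1137 was at 10.1 CPM in the anterior hindwing of animal 3 and at 590 CPM in that of animal 1, while at 70% it reached 43.1 CPM in that of animal 10. It is the only member in which the stages overlapped in range. MSTRG.20756 was at 2.37 to 10.9 CPM in the 4 libraries of animals 3 and 4 and at 26.4 to 130 CPM in those of animals 1 and 2.

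MSTRG.13048 (evm.TU.Herato1301.174, chromosome 13) showed the reverse order. In the main wing it was at 2956, 3109, 19136 and 17897 CPM in animals 1 to 4 and at 9642, 8007, 5026 and 2627 CPM in animals 5 to 8. Animals 3 and 4 were here the highest of all 8, and animal 8 the lowest. MSTRG.16637 and MSTRG.16634 were ordered alike, with lower levels in animals 1, 2 and 8 than in the other 5. There were 97 annotated loci that met the mirror image of the thresholds, high at 70% and low at 50%. At 50% their share of main wing counts was 0.217% in animal 1, 0.23% in animal 2, 0.0676% in animal 3 and 0.12% in animal 4. In demophoon it was 0.11% in animal 8 and 0.0668% to 0.0774% in animals 5 to 7. Animal 4 was thus above animal 8 there, and animal 3 lay within the range of animals 5 to 7. In the anterior hindwing the share was 0.105%, 0.0976%, 0.0529% and 0.0659% in animals 1 to 4. Animals 5 to 8 had 0.0667%, 0.0515%, 0.0498% and 0.0882%. In both regions animals 1 and 2 were above animals 3 and 4, and animal 8 was above animals 5 to 7. In the labels the libraries at 50% are numbered without a break, in the animal order 5, 6, 3, 4, 1, 2, 7 and 8. Animals 4 and 1 are thus as close in number as animals 3 and 4. The part of the late-rising loci and of the numbering in the members' levels was not tested.

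The subspecies were compared at 50% with edgeR's quasi-likelihood test over all loci, separately in each wing region. In the main wing 2 of 61 members were DE (differentially expressed, false discovery rate (FDR) below 0.05), 1 higher and 1 lower in cyrbia, where 7.09% of the 12785 loci tested were called. In the anterior hindwing the same 2 members were DE, with a background of 8.47% of 13690 loci. The members' share was 3.28% in each region, below the background of all loci, and 1.96% and 2% of the other loci of at least 20 CPM were called. The members' estimates had a median SE of 0.34 and 0.41 (log2), against 0.22 and 0.23 in those other loci. At an unadjusted p below 0.05 edgeR gave 7 members (11.5%) in the former region and 13 (21.3%) in the latter, against 20.7% and 23.3% of all loci tested and 12.9% and 12.7% of the other loci of at least 20 CPM. DESeq2 called 4 of 61 members in the main wing and 6 for the anterior hindwing. Among the loci it gave an adjusted p, it called 14.9% of 17744 and 18.1% of 18232.

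MSTRG.5338 (evm.TU.Herato0606.254, chromosome 6) was higher in cyrbia. In the main wing it was at 275, 301, 168 and 202 CPM in animals 1 to 4 and at 132, 138, 151 and 151 CPM in animals 5 to 8. In the anterior hindwing the values were 348, 371, 214 and 306 CPM in cyrbia and 140, 172, 121 and 177 CPM in demophoon. All 4 cyrbia animals lay above all 4 demophoon animals in both regions. The log2 fold change was 0.90 (SE 0.18, edgeR adjusted p = 0.0173) in the main wing and 1.05 (SE 0.20, edgeR adjusted p = 0.0143) in the anterior hindwing. The main wing call was lost without animal 5, 7 or 8 and when both stages were fitted together, and the anterior call without animal 5 (highest edgeR adjusted p of 0.063 and 0.0504).

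MSTRG.19199 (evm.TU.Herato1901.103, chromosome 19) was lower in cyrbia. Its main wing levels were 179, 204, 270 and 193 CPM in animals 1 to 4 and 586, 675, 605 and 414 CPM in animals 5 to 8. In the anterior hindwing they were 200, 300, 304 and 233 CPM in cyrbia and 617, 706, 561 and 444 CPM in demophoon. The subspecies did not overlap in either region. The log2 fold change was -1.24 (SE 0.25, edgeR adjusted p = 0.0211) and -1.09 (SE 0.27, edgeR adjusted p = 0.0404). At 70% the locus was at 0 to 2.85 CPM in every library. This call was lost in both regions without animal 1, 2, 5, 6 or 7, and in the anterior hindwing also without animal 4, with an edgeR adjusted p of up to 0.0612 for the main wing and 0.105 for the anterior hindwing. With both stages fitted together the adjusted p was 0.372 and 0.43.

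**Figure D4:**
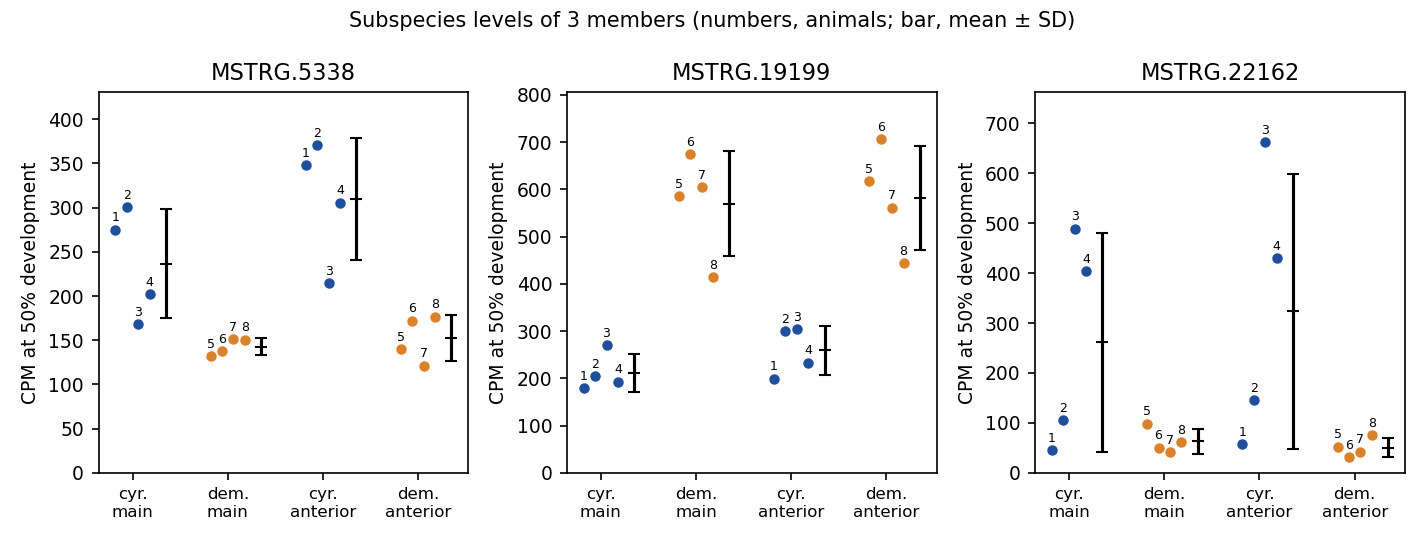
The vertical axes give CPM at 50% for MSTRG.5338, MSTRG.19199 and MSTRG.22162, with 1 numbered point per animal and the mean ± SD beside each group of 4. The subspecies are apart in both regions for the former pair. For MSTRG.22162 animals 3 and 4 lie at 404 to 662 CPM, animal 2 lies above the demophoon animals at 106 and 145 CPM, and animal 1 lies among them.

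In CPM the 4 cyrbia animals lay entirely above or below the 4 demophoon animals in 3 members in the main wing (4.92%, against 15.5% of the 10688 loci with a mean of at least 1 CPM) and in 4 in the anterior hindwing (6.56%, against 16% of 10986 loci). Besides MSTRG.5338 and MSTRG.19199 these were MSTRG.2367 in the main wing and the near neighbours MSTRG.2863 and MSTRG.2865 in the anterior hindwing, all 3 lower in cyrbia and named after their values were seen. The largest estimate among the members belonged to MSTRG.22162 (evm.TU.Herato2101.446, on the Z chromosome), named here after its values were seen. Its log2 fold change was 2.31 (SE 0.73, edgeR adjusted p = 0.104) in the main wing and 2.85 (SE 0.76, edgeR adjusted p = 0.0533) in the anterior hindwing, neither past the threshold. The main wing levels were 45, 106, 489 and 404 CPM in animals 1 to 4 and 98.3, 50.6, 41.9 and 61 CPM in animals 5 to 8. The groups overlapped, and the difference rested on animals 3 and 4. Without animal 1 the locus was called in both regions (edgeR adjusted p = 0.0393 and 0.021), as it was by DESeq2 (adjusted p = 0.00771 and 0.000637). With both stages fitted together it was called in the anterior hindwing (edgeR adjusted p = 0.0431) and not in the main wing (0.0805). It stayed uncalled in 11 of 13 alternatives for the main wing and 10 of 13 for the anterior hindwing. Without animal 3 the estimates fell to 1.78 and 2.03 (edgeR adjusted p = 0.195 and 0.0806). Without animal 4 they were 2.03 and 2.78 (0.175 and 0.0902). With sex as a term the edgeR adjusted p was 0.145 and 0.0852.

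The wing regions were compared within animals, with the animal as a block. In cyrbia 0 of 61 members were called DE by edgeR between main wing and anterior hindwing, with a background of 0.0253% (4 of 15832 loci). In demophoon it was also 0 members, with a background of 0.0442% (7 loci). The test of whether the region difference itself differed between subspecies called 0 members and 0.00632% of loci (1 locus). At an unadjusted p below 0.05, edgeR gave 14 members (23%) in cyrbia, 21 (34.4%) in demophoon and 18 (29.5%) for the interaction, against 12.6%, 8.06% and 9.68% of all loci tested and 23%, 12.7% and 15.6% of the other loci of at least 20 CPM. DESeq2 called 5, 4 and 6 of 61 members in the same 3 comparisons. Among the loci it gave an adjusted p, it called 5.7% of 9737, 1.68% of 14050 and 2.43% of 8013.

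The largest region estimates were in MSTRG.14621 (novel_gene_165, chromosome 14), which was also among the members with the most counts. In cyrbia its main wing levels were 36000, 42746, 15860 and 2806 CPM and its anterior hindwing levels 33213, 7366, 1615 and 2484 CPM in animals 1 to 4. In demophoon animals 5 to 8 had 30062, 35764, 16022 and 6727 CPM in the main wing and 30520, 46427, 49102 and 51661 CPM in the anterior hindwing. Animals 2 and 3 were higher in the main wing, and animals 7 and 8 in the anterior hindwing. Animal 6 was higher in the anterior hindwing by a smaller margin, and its main wing library had the lowest total (9330883 counts). Animals 1, 4 and 5 differed little between regions. The log2 difference of main wing over anterior hindwing was 1.66 (SE 0.72, edgeR adjusted p = 0.405) in cyrbia and -1.17 (SE 0.70, edgeR adjusted p = 0.763) in demophoon. The difference between these was 2.84 (SE 1.01, unadjusted p = 0.0254 in edgeR), which did not pass the adjustment over all 15832 loci (edgeR adjusted p = 0.452).

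The members were spread over 18 of 21 chromosomes, with none on chromosomes 8, 9 and 11. Chromosome 20 held 6 members, chromosomes 12, 13, 14 and 19 held 5 each, and the Z chromosome held 2, MSTRG.22162 and MSTRG.21653. As a share of the annotated loci above the level threshold, members made up 0.725% (chromosome 6) to 4.85% (chromosome 14) where there were any. Within the chromosomes some members lay side by side. There were 4 pairs with no other annotated locus between them, holding 8 of 61 members (13.1%). Of the other 2756 annotated loci of at least 20 CPM, 0.689% lay next to a member. With up to 10 annotated loci between, 19 members (31.1%) fell in 9 groups, the largest of 3 (MSTRG.21215, MSTRG.21222 and MSTRG.21225 on chromosome 20), and 7.22% of the other loci lay as near to a member. Order was taken from locus and gene model numbers, which run in the same order in 10675 of 10962 adjacent pairs.

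Of the 23 annotated loci between members of a group, 20 had a smallest ratio under 4, 2 between 4 and 16, and 1 above 16. Between MSTRG.13048 and MSTRG.13057 on chromosome 13 the annotated loci were at 0.0713 to 28.2 CPM at 50%, and the smallest ratio of each was under 1. Between MSTRG.17554 and MSTRG.17561 on chromosome 17 the annotated loci had smallest ratios of 0.71 to 1.1. In the group of 3 on chromosome 20 the 1 annotated locus between, MSTRG.21220, which like MSTRG.2864 was singled out after its values were seen, was at 23.9 CPM at 50% and 1.68 CPM at 70%, with a smallest ratio of 9.75. The locus above 16 was MSTRG.2864, between MSTRG.2863 and MSTRG.2865 on chromosome 4, whose smallest ratio was 20.3 and which was left out because its lowest group mean at 50% was 10.5 CPM. Without the level threshold these 3 adjacent loci would thus have formed 1 run.

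Adjacent members did not always vary together among the animals at 50%. In the pair MSTRG.16634 and MSTRG.16637 the ratio of the latter to the former stayed between 1.62 and 2.68 over the 16 libraries. At 70% this ratio of summed group means was 7.77. For MSTRG.1900 and MSTRG.1901 (evm.TU.Herato0215.1 and evm.TU.Herato0215.2) the ratio ran from 5.78 to 16.3, and both had their lowest levels in animal 3. For MSTRG.21222 and MSTRG.21225 (evm.TU.Herato2001.597 and evm.TU.Herato2001.598) it ran from 0.329 to 4.01, a 12.2-fold range. There MSTRG.21225 was at 859 and 1320 CPM in the main wing of animals 3 and 4 and at 3073 and 3847 CPM in that of animals 1 and 2, while MSTRG.21222 was at 2536 to 3173 CPM in all 4. For MSTRG.19779 and MSTRG.19780 (evm.TU.Herato1906.24 and evm.TU.Herato1906.25) the ratio ran from 23.8 to 488, a 20.5-fold range. How the assembly shares out reads that fall near the border of adjacent loci is not known here, and its part in these ratios was not tested.

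**Figure D5:**
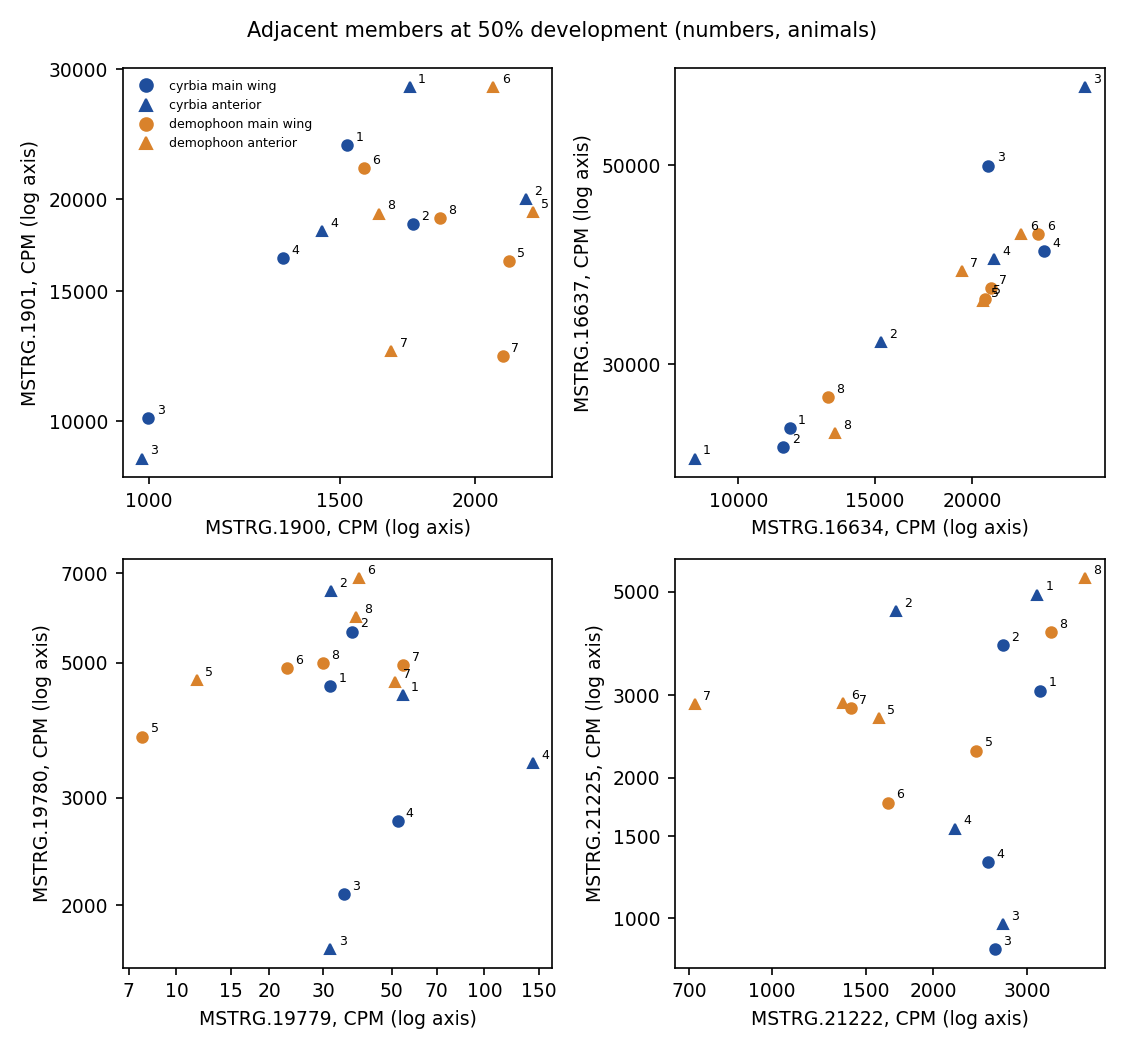
Each panel plots the CPM of 1 member of an adjacent pair against the other at 50% on log axes, with a point per library (circles, main wing; triangles, anterior hindwing; blue, cyrbia; orange, demophoon) numbered by animal. Points for MSTRG.16634 and MSTRG.16637 lie along a line, and those for MSTRG.19779 and MSTRG.19780 are scattered.

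A further 17 of the 272 unannotated loci above the level threshold met both thresholds, and 7 of them were within 3 locus numbers of a member. Named after their values were seen, they include MSTRG.14301 on chromosome 14, with group means of 21456 to 23293 CPM at 50% and at most 21 CPM at 70%. MSTRG.16635, between the members MSTRG.16634 and MSTRG.16637, had group means of 70.8 to 296 CPM at 50% and 0 in every group at 70%. These loci lie outside the rule because they carry no gene model.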

How the data were processed

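The members and lists were chosen with earlier results of these data known. RNA was extracted with QIAgen RNeasy and sequenced from TruSeq v2 libraries, per the labels. The submitters' processing notes name Trimmomatic (v. 0.38), HISAT2 (v. 2.1.0), SAMtools (v. 1.9) and StringTie (v. 1.3.5). Strandedness, genome build and annotation version were not given in the sources used here. Raw counts were deposited by the authors in 1 table of 24118 loci and 32 libraries, and StringTie estimates such counts from coverage. Locus IDs with evm.TU or novel_gene were taken as annotated, and their scaffold prefix gave the chromosome.

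CPM was the count over the library total. Subspecies were compared in edgeR (v. 4.0.16, R v. 4.3.3) on the 8 libraries of a region at 50%, and regions and their interaction on the 16 libraries at 50% with the animal as a block, since the labels tie both regions to 1 animal. The fits used filterByExpr, TMM and the robust quasi-likelihood F test, with Benjamini-Hochberg adjustment over all loci, and were tested on simulated data. Deviations from group means correlated between the regions of an animal with r of 0.49 to 0.77 across 15832 loci, and between different animals with at most 0.18. Alternatives were RLE factors, DESeq2 (v. 1.42.0), no count filter, both stages in 1 fit, sex as a term, no block, leaving out each animal, other thresholds and other spacings between neighbours. Loci named are the 6 members with the most counts, called members, adjacent pairs, the 3 largest and 3 smallest ratios and the 3 loci just outside. Others are said to be chosen after their values were seen.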

Additional observations from a re-analysis of the deposited data

Results flagged for a closer look

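For the 22 loci described and for the members' summed share, each group of 4 animals with a mean of at least 1 CPM was searched for an animal far from the other 3, by Dixon's ratio of gap to range. Of 162 such groups 15 (9.26%) passed its 95% critical value. Chance flags about 1 in 20 groups, but 5 of the 22 loci were named after their values were seen and give 5 of the 15, so that the 2 rates cannot be compared. Of these, 9 came from animal 10 at 70%. In its anterior hindwing that animal had 58.8 CPM for MSTRG.16637 (others 9.87 to 13.2), 246 for MSTRG.17554 (others 5.85 to 6.49), 42.3 for MSTRG.6671 (others 11.1 to 14.6), 311 for MSTRG.20389 (others 24.8 to 50.7), 40.9 for MSTRG.913 (others 4.14 to 8.08) and 43.1 for MSTRG.1137 (others 2.74 to 4.89). In its main wing it had 9.64 CPM for MSTRG.16634 (others 2.7 to 3.47), 195 for MSTRG.17554 (others 3.21 to 9.49) and 28.4 for MSTRG.1137 (others 2.62 to 4.16). The members' share of its anterior hindwing counts was 0.236%, the highest at 70%, and the late-rising loci took 16% there against 14% to 20% in the other 3 animals.

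Animal 8, the only demophoon male at 50%, stood apart in 4 groups. MSTRG.20756 was at 149 CPM in its anterior hindwing (others 15.8 to 25.7) and 116 CPM in its main wing (others 17.9 to 28.1), MSTRG.21225 at 5355 CPM in its anterior hindwing (others 2689 to 2892), and MSTRG.14287 at 697 CPM there (others 843 to 868). MSTRG.19780 was low in the main wing of animal 5 (3781 CPM, others 4891 to 4983), and MSTRG.20389 was high in the anterior hindwing of animal 14 at 70% (85.3 CPM, others 33.1 to 39.1). What sets these animals apart was not tested.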

How the results depend on the processing

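The number of members was 57 to 62 when each animal was left out, 58 with TMM-adjusted library sizes and 103 with an 8-fold threshold. Members in runs numbered 8 with adjacent annotated loci, 17 and 19 with up to 5 and 10 annotated loci between, and, counting unannotated loci as well, 4 with 0 and 17 with up to 10 between. The count of members DE between subspecies in the main wing, 2, became 4 with DESeq2. That method called 14.9% of the 17744 loci it gave an adjusted p. With both stages in 1 fit the count was 0, and MSTRG.5338 then had an edgeR adjusted p of 0.0599. It was 0 to 3 when animals were left out in turn, with 0 without animal 5 or 7 and 3 without animal 4. In the anterior hindwing the 2 became 6 with DESeq2 (18.1% of 18232 loci with an adjusted p). The count was 0 to 4 when animals were left out, with 0 without animal 5 and 4 without animal 1. Of the 2 calls in the anterior hindwing, 1 was shared when both stages were fitted. DESeq2 called 5 of 61 members between regions in cyrbia, 4 in demophoon and 6 for the interaction. Among the loci with an adjusted p it called 5.7% of 9737, 1.68% of 14050 and 2.43% of 8013. The edgeR count stayed at 0 in all other alternatives run, including each animal left out (0 to 0). Without the replicate block that pairs the regions of an animal it was also 0 in all 3 comparisons. Of 172 alternative values, 127 kept their side of the threshold or stayed close. These include counts of 0 that stayed at 0, in 12 of 13 alternatives for each region comparison and the interaction. The subspecies count moved in 7 of 13 alternatives in each region. The MSTRG.19199 call was lost in 6 of 13 for the main wing and 7 of 13 for the anterior hindwing. A reversed sign was possible only for the estimates of MSTRG.5338, MSTRG.19199 and MSTRG.22162, and 0 of these reversed. A count could also stay the same with other members in it. Without animal 1 the main wing count was again 2, of which 1 was shared. With 4 animals a group, the members' median SE of 0.34 and 0.41 limits what a subspecies difference can show.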
